A study of Arabidopsis thaliana with 24 samples.

Results

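The genes described here are 5 protein-coding genes of Arabidopsis thaliana, AT4G15030, AT3G55860, AT4G27020, AT3G45630 and AT5G46750 (AGD9), out of 28775 genes in the count tables. They were selected on measured values of these same libraries: each overlapped no annotated small RNA gene, and each had a lower level in NAD-captured RNA than in total RNA in every condition. Their NAD against total RNA values are therefore given as a description, with no test. With lower called at an adjusted p of at most 0.05 in all 4 conditions, 42 of 5475 genes tested passed (0.767%). Of these, 25 were protein-coding, and 10 of the 25 overlapped no annotated small RNA gene. The 5 listed genes were all among these 10. AT5G66050, FD3, SAR3, GRV2 and JAL34 met the same rule in this fit without being on the list, so the 5 are not the complete set. By comparison, 15 of 92 tested protein-coding genes that overlap a small RNA gene passed (16.3%), against 10 of 5159 without such an overlap (0.194%). The mean log2 ratio over the 4 conditions was -6.06 to -2.48 in the 5 listed genes, -4.65 to -1.63 in the 5 unlisted genes and -5.68 to -1.98 in the 15 with an overlap, of which AT1G72645 (-5.68), emb1644 (-4.19) and AT3G07860 (-4.06) were the lowest.

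Most messenger RNAs carry a methylated guanosine cap at the 5′ end, but NAD, a cofactor of metabolism, can take its place as the first nucleotide. Enzymes of the DXO family, of which DXO1 is the Arabidopsis member, can remove the NAD and expose the RNA to decay. An NAD capture library enriches RNAs with an NAD end, and a GMUCT library reads uncapped and cleaved RNAs, which include intermediates of decay. Small nuclear RNAs (snRNAs) form the spliceosome and small nucleolar RNAs (snoRNAs) guide the modification of ribosomal RNA. Plant snoRNAs are often encoded inside protein-coding genes, so reads of a small RNA can be counted for the gene around it.

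The study compared 4 conditions: dxo1 with abscisic acid (ABA, a stress hormone), dxo1 under the normal condition (NT), wild-type Col-0 with ABA and Col-0 under NT. Each condition was measured in NAD-captured RNA, GMUCT and total RNA with 2 libraries, which gave 24 libraries in 12 groups. Plants were 12-day-old seedlings on 1/2 MS medium, although the tissue label reads bud tissue. The labels give no dose or duration of ABA, and the lesion in dxo1 is named only by the gene. p-values measure the spread between libraries labelled as replicates, which may be technical.

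Gene counts per library were 750596 to 1526203 in NAD, 5793714 to 13940464 in GMUCT and 878113 to 2027552 in total RNA. Chloroplast and mitochondrial genes took 69.7 to 95.6% of NAD counts, and genes annotated as protein-coding took 2.17 to 17.7%. The first Col-0 ABA NAD library stood apart at 95.6% organelle and 2.17% protein-coding counts. The snoRNA share in total RNA was 34.3 and 56.1% in dxo1 ABA, 1.14 and 6.59% in dxo1 NT, 24.9 and 24.4% in Col-0 ABA, and 8.58 and 11.2% in Col-0 NT. In GMUCT, the 4 green tissue markers summed to 5528 to 8898 CPM (reads scaled to library size), the 6 root markers to 52.9 to 78.9 CPM, and the 7 floral organ markers to 1.04 to 6.90 CPM, of which 2 had reads in all 8 libraries. The floral regulator AP1 was at 0 in 5 of the 8 GMUCT libraries. DXO1 had 166 to 322 GMUCT counts in dxo1 and 167 to 349 in Col-0, and its mean GMUCT level was 17.3 CPM in dxo1 ABA, 19.8 CPM in dxo1 NT, 31.4 CPM in Col-0 ABA and 27.9 CPM in Col-0 NT. The counts do not tell which part of DXO1 these reads come from.

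AT4G15030, on chromosome 4, has 12 or 13 exons in its 3 transcripts and is annotated as a folate-sensitive fragile site protein. Among the 5 genes it had the highest total RNA level per length, at 338 CPM per kb of exon in dxo1 ABA, 487 in dxo1 NT, 733 in Col-0 ABA and 1522 in Col-0 NT. Its total RNA counts were 1471 and 943 in dxo1 ABA, 367 and 2257 in dxo1 NT, 2215 and 1609 in Col-0 ABA, and 3977 and 2176 in Col-0 NT. The matching NAD counts were 23 and 14, 20 and 17, 13 and 19, and 20 and 10. Every NAD library thus had at most 23 reads of a gene with 367 reads or more in every total RNA library. In bulk RNA of this kind, fewer cells of a type and less RNA per cell cannot be told apart. AT4G15030 overlaps the opposite-strand gene AT4G15040 over 875 bp, and AT4G15040 had 0 reads in all 8 NAD and all 8 total RNA libraries.

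AT3G55860, on chromosome 3, has 5 exons and encodes an uncharacterized protein. Its total RNA counts were 51 and 37 in dxo1 ABA, 16 and 38 in dxo1 NT, 35 and 32 in Col-0 ABA, and 3 and 11 in Col-0 NT. NAD counts were 2 and 3 in dxo1 ABA, 1 and 1 in dxo1 NT, 0 and 1 in Col-0 ABA, and 0 and 0 in Col-0 NT. GMUCT counts, from libraries several times deeper, were 0 and 2 in dxo1 ABA, 3 and 0 in dxo1 NT, 1 and 3 in Col-0 ABA, and 3 and 0 in Col-0 NT. AT3G55860 was thus at or near 0 in both NAD and GMUCT, and total RNA was the only assay of the 3 with more than 3 reads of it in any library.

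The annotated first exon of AT3G55860, 763 bp long, begins with a stretch that resembles an snRNA. The first 93 bases of the gene matched the annotated U5 snRNA gene U5.7 at 91 positions and U5.6 at 90 positions, and bases 5 to 97 matched U5.5 at 90 of 93 positions, each on the same strand and without a gap. U5 snRNA is the RNA of a core spliceosome particle. The matching stretch lies before the first coding base, which comes after 657 bases. The 3 U5 genes are shown because AT3G55860 is listed as overlapping no annotated small RNA gene. The sequences come from the TAIR10.1 assembly of RefSeq, U5.7 at chr4:1114529-1114629, U5.6 at chr1:1215731-1215831 and U5.5 at chr1:8525104-8525204, all on the minus strand, and capitals mark the bases that AT3G55860 shares:
U5.7: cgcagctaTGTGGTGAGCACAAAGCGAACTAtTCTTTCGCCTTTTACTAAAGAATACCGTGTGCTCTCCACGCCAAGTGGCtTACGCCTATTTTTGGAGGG
U5.6: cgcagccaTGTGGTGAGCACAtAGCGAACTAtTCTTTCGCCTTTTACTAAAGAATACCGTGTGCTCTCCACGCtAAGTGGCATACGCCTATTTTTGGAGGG
U5.5: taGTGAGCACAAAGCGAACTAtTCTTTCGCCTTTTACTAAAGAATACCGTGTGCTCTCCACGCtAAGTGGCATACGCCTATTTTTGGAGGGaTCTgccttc

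Of the 5159 tested protein-coding genes without an annotated small RNA overlap, 2 (0.0388%) held a match of at least 60 bases at 90% identity or more to any of 994 annotated snRNA, snoRNA or tRNA genes. These were AT3G55860 and PRIN2, and PRIN2 was not lower in NAD in all 4 conditions. In AT4G15030, AT4G27020, AT3G45630 and AGD9 no match was longer than 20 bases. The gene counts do not tell where in AT3G55860 the total RNA reads lie, and reads that fit several near-identical copies equally well may not have been assigned to it. Its count is uncertain for that reason.

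AT4G27020, on chromosome 4, has 7 exons and is annotated as an inositol-1,4,5-trisphosphate 5-phosphatase, an enzyme class that removes a phosphate from a calcium-releasing second messenger. Its total RNA counts were 16 and 74 in dxo1 ABA, 121 and 99 in dxo1 NT, 25 and 24 in Col-0 ABA, and 41 and 29 in Col-0 NT. NAD counts were 3 and 3, 4 and 3, 0 and 1, and 8 and 5 in the same order. AT4G27020 had the lowest GMUCT level per length of the 4 members detected there, at 7.91 CPM per kb in dxo1 ABA, 7.57 in dxo1 NT, 9.33 in Col-0 ABA and 6.73 in Col-0 NT. It overlaps the opposite-strand gene AT4G27010 over 73 bp, and AT4G27010 had 0 to 5 reads in each total RNA library.

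AT3G45630, on chromosome 3, has 14 exons and an RNA recognition motif, and is grouped here with the CCR4-NOT complex, which shortens poly(A) tails, as a NOT4-like protein. Its total RNA counts were 33 and 99 in dxo1 ABA, 126 and 161 in dxo1 NT, 45 and 34 in Col-0 ABA, and 35 and 24 in Col-0 NT. NAD counts were 9 and 5, 6 and 1, 2 and 2, and 2 and 7 in the same order. The 2 dxo1 NT total RNA libraries had more AT3G45630 reads than any other total RNA library. The gene overlaps the opposite-strand gene AT3G45620 over 65 bp, and AT3G45620 had 1 to 8 reads in each total RNA library and 100 to 245 in each GMUCT library. The sources used here do not say whether the counting used the strand, so reads in such overlaps may not be told apart.

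AGD9, on chromosome 5, has 7 exons and encodes an ARF-GAP domain protein, a family that switches off ARF GTPases in vesicle traffic. Its total RNA counts were 70 and 230 in dxo1 ABA, 145 and 190 in dxo1 NT, 57 and 53 in Col-0 ABA, and 81 and 50 in Col-0 NT. NAD counts were 18 and 15, 21 and 15, 0 and 8, and 18 and 15 in the same order. The library with 0 AGD9 reads was the first Col-0 ABA NAD library, the one with 2.17% protein-coding counts. AGD9 overlaps no other annotated gene, and neither does AT3G55860.

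**Figure D1:**
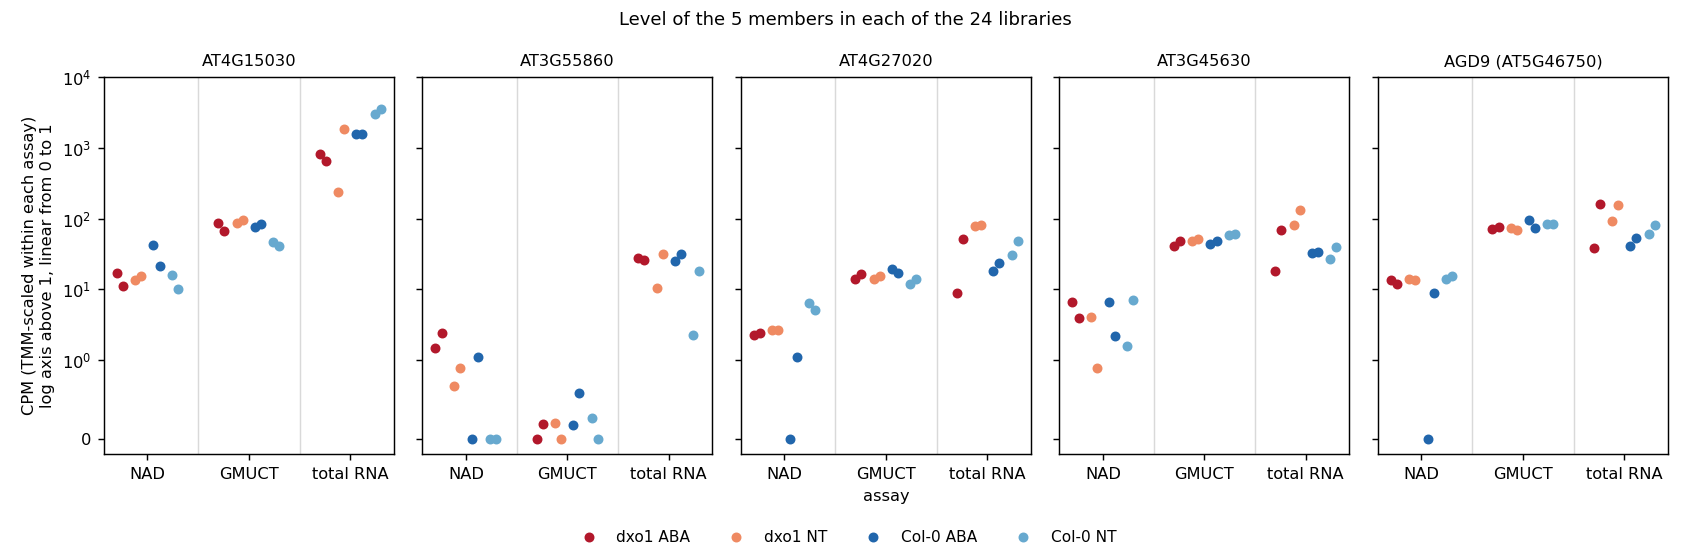
Level of each of the 5 genes in every library, as CPM scaled within each assay (TMM), on a log axis above 1 and a linear axis from 0 to 1. Points are single libraries, coloured by condition, and the scaling does not place the assays on one scale. AT3G55860 has at most 3 reads in any NAD or GMUCT library, and AT4G15030 has the highest total RNA level, at 236 to 3584 CPM.

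Set against total RNA in a joint fit of both assays, AT4G15030 had a NAD to total RNA log2 ratio of -5.25 ± 0.68 (SE) in dxo1 ABA, -5.82 ± 0.69 in dxo1 NT, -5.52 ± 0.70 in Col-0 ABA and -7.66 ± 0.75 in Col-0 NT. These values describe how the genes were chosen, and each SE is approximate, with 2 libraries per group and assay. The shares of all 5475 genes called lower were 6.03% in dxo1 ABA, 6.45% in dxo1 NT, 1.75% in Col-0 ABA and 2.76% in Col-0 NT.

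AGD9 had log2 ratios of -2.52 ± 0.53 in dxo1 ABA, -2.81 ± 0.53 in dxo1 NT, -2.62 ± 0.69 in Col-0 ABA and -1.96 ± 0.54 in Col-0 NT. AT3G45630 had -2.55 ± 0.60 in dxo1 ABA, -4.92 ± 0.66 in dxo1 NT, -2.99 ± 0.82 in Col-0 ABA and -2.64 ± 0.68 in Col-0 NT. AT4G27020 had -3.20 ± 0.69 in dxo1 ABA, -4.49 ± 0.64 in dxo1 NT and -2.41 ± 0.62 in Col-0 NT. With 1 NAD read in all under Col-0 ABA, its NAD to total RNA ratio was 0.0483, with a 95% exact counting interval of 0.00120 to 0.282.

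For AT3G55860 the NAD reads were too few for a fitted ratio except in dxo1 ABA, where it was -3.32 ± 0.75 on 5 reads. The NAD to total RNA ratio was 0.0504 in dxo1 NT (95% exact counting interval 0.00595 to 0.191) and 0.0353 in Col-0 ABA (0.000881 to 0.204). In Col-0 NT, with 0 NAD reads, a floor of 3 counts over the group put NAD 4.41-fold below total RNA. This takes the 14 total RNA reads, 3 and 11 in the 2 libraries, as exact, so it is no firm bound. The intervals cover counting error only, and the floor covers that of the NAD reads alone.

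Leaving out the first Col-0 ABA NAD library gave Col-0 ABA log2 ratios of -5.95 for AT4G15030, -4.28 for AT3G55860, -3.83 for AT4G27020, -3.56 for AT3G45630 and -2.10 for AGD9. The rule selected negative values, so their sign is no check. The values of AT3G55860 and AT4G27020 rested on 1 NAD read each. Without the second Col-0 ABA NAD library, the group's NAD level rested on the first library alone, with 0 reads of AGD9, AT3G55860 and AT4G27020, and the fitted values were -8.68, -7.96 and -7.51, which depend on the prior count and are no bounds. The Col-0 ABA ratio of AGD9 thus rests on the 8 reads of the second library. With each of the 16 NAD and total RNA libraries left out in turn, the rule's threshold in all 4 conditions was met by 1 or 2 of the 5 genes for 10 of the libraries, which describes the selection only.

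Single libraries also moved the size of the ratios. Without the second dxo1 NT total RNA library AT4G15030 had -3.73 in dxo1 NT. Without the second dxo1 ABA total RNA library the dxo1 ABA values were -1.20 for AGD9, -1.34 for AT3G45630 and -1.50 for AT4G27020. AT3G45630 had -6.46 in dxo1 NT without the first dxo1 NT NAD library, and -1.84 or -3.96 in Col-0 NT without the first or the second Col-0 NT NAD library. Ranked by the largest adjusted p over the 4 conditions, AT3G45630 lay nearest to the threshold among the 5. Its mean log2 ratio over the 4 conditions was -3.28. By that ranking, the genes without small RNA overlap nearest on the other side were PHS1, a starch phosphorylase gene, MMT and HAP13. Their mean log2 ratios were -1.76, -2.94 and -2.65.

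GMUCT was also lower than total RNA for all 5 genes in all 4 conditions, which held for 4.34% of the 17930 genes tested. The shares called lower in single conditions were 12.7% in dxo1 ABA, 12% in dxo1 NT, 11.4% in Col-0 ABA and 9.75% in Col-0 NT. The rule used the same total RNA libraries, so a high total RNA level was in part selected and the GMUCT ratios are not tested. AT3G55860 passed the filter on low counts in this fit through its total RNA reads alone. In the NAD fit AT3G55860, AT4G27020 and AT3G45630 likewise needed their total RNA reads to pass. They had at most 3, 8 and 9 reads in any NAD library.

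The GMUCT to total RNA ratio of AT4G15030 had log2 values of -5.75 ± 0.55 in dxo1 ABA, -5.97 ± 0.55 in dxo1 NT, -6.77 ± 0.57 in Col-0 ABA and -8.57 ± 0.62 in Col-0 NT. AT4G27020 had -3.39 ± 0.36, -4.94 ± 0.32, -2.65 ± 0.42 and -3.88 ± 0.39 in the same order. For AT3G55860 the GMUCT to total RNA ratio was 0.000681 in dxo1 ABA (95% exact counting interval 8.11e-05 to 0.00253), 0.000909 in dxo1 NT (0.000182 to 0.00280) and 0.00390 in Col-0 NT (0.000719 to 0.0140), and the log2 ratio in Col-0 ABA was -8.61 ± 0.62. Without the second dxo1 NT total RNA library the GMUCT value of AT4G15030 in dxo1 NT was -3.85, and without the second dxo1 ABA total RNA library that of AT4G27020 in dxo1 ABA was -1.64.

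AT3G45630 and AGD9 lay nearer to total RNA in GMUCT, and their direction depended on the scaling. AT3G45630 had log2 ratios of -2.39 ± 0.32 in dxo1 ABA, -3.57 ± 0.30 in dxo1 NT, -1.98 ± 0.35 in Col-0 ABA and -1.41 ± 0.36 in Col-0 NT, and turned positive in dxo1 ABA, Col-0 ABA and Col-0 NT when scaled by library size alone. AGD9 had -2.89 ± 0.34 in dxo1 ABA, -3.31 ± 0.34 in dxo1 NT, -1.58 ± 0.36 in Col-0 ABA and -2.09 ± 0.35 in Col-0 NT, and turned positive in Col-0 ABA and Col-0 NT under that scaling. Scaling by library size alone moved the median log2 ratio of all genes to 2.51 to 2.97, against 0.26 to 0.51 with TMM, so both genes stayed below the median gene. Without the second dxo1 ABA total RNA library the dxo1 ABA values were -1.13 for AT3G45630 and -1.50 for AGD9.

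**Figure D2:**
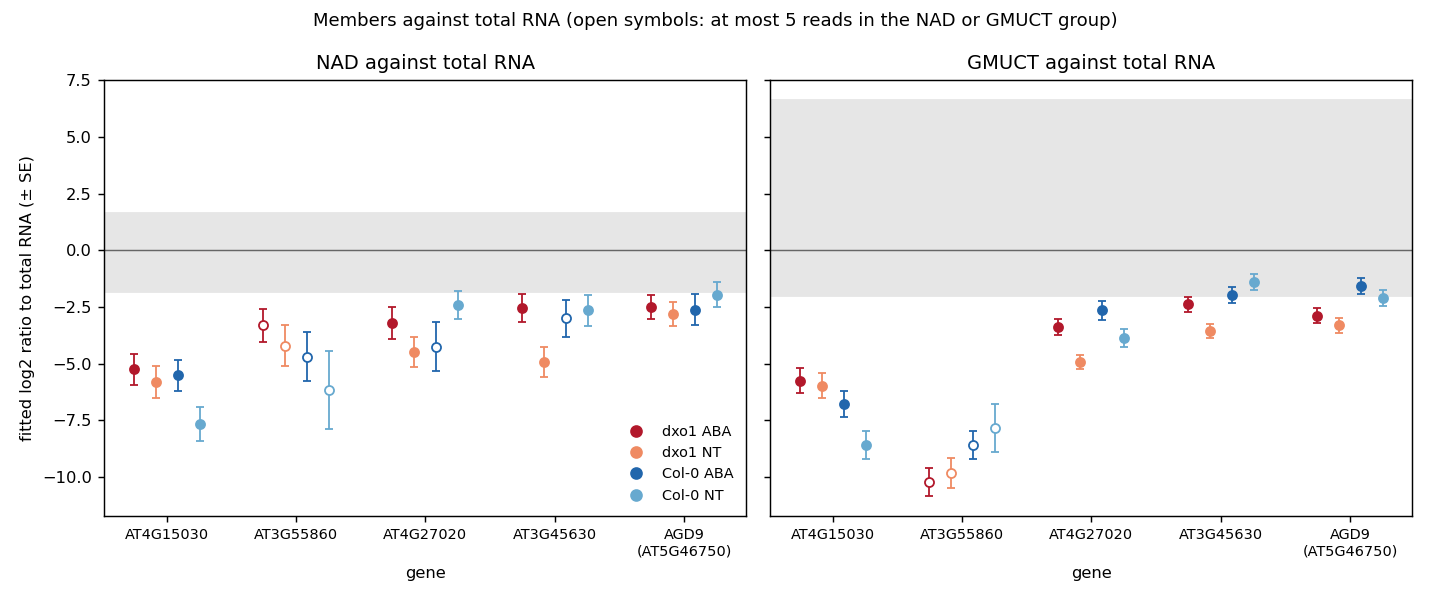
Fitted log2 ratio of NAD (left) and GMUCT (right) to total RNA for the 5 genes in each condition, with the approximate SE. The grey band is the 5th to 95th percentile range of all genes tested that is common to the 4 conditions, and open symbols mark groups with at most 5 reads. In NAD, AT4G15030 lies at -5.25 to -7.66 and AGD9 at -1.96 to -2.81.

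Whether a gene changed with ABA or in dxo1 was tested within GMUCT and within total RNA. The rule did not use these contrasts between conditions, and it did not use the GMUCT libraries. It did use the level in total RNA in every condition, so the total RNA tests draw on selected values. In GMUCT 4 of the 5 genes could be tested, since AT3G55860 had too few reads. AT4G15030 changed in GMUCT. Its level was 86.1 and 65.9 CPM in dxo1 ABA, 87.0 and 96.0 CPM in dxo1 NT, 77.0 and 82.6 CPM in Col-0 ABA, and 46.1 and 41.0 CPM in Col-0 NT. The 2 Col-0 NT libraries were the lowest of the 8 and overlapped with no other group.

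Under NT, the GMUCT level of AT4G15030 rose in dxo1 relative to Col-0 by 1.07 ± 0.17 on the log2 scale (edgeR quasi-likelihood test, adjusted p = 0.000182). Of the 4 genes tested it was the only one called in this comparison, in which 20.5% of 19644 genes were called. In Col-0 it rose with ABA relative to NT by 0.87 ± 0.17 (edgeR, adjusted p = 0.000684), again as the only one of 4, where 26.7% of all genes were called. In both comparisons the 2 libraries of the first-named group lay above both libraries of the other.

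In dxo1 the ABA effect on AT4G15030 was -0.27 ± 0.16 (edgeR, adjusted p = 0.432), although both dxo1 ABA libraries lay below both dxo1 NT libraries, by as little as 86.1 against 87.0 CPM. The difference between the genotypes in the ABA effect was itself called, at -1.14 ± 0.23 (edgeR interaction test, adjusted p = 0.00408), where 8.92% of all genes were called. With ABA, dxo1 and Col-0 differed by -0.07 ± 0.17 (edgeR, adjusted p = 0.780), a value that turned to 0.20 with scaling by library size alone and to 0.12 without the second dxo1 ABA GMUCT library. The 3 calls of AT4G15030 remained in every alternative run, with interaction values of -1.34 to -0.96 when single libraries were left out and a highest adjusted p of 0.0493.

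**Figure D3:**
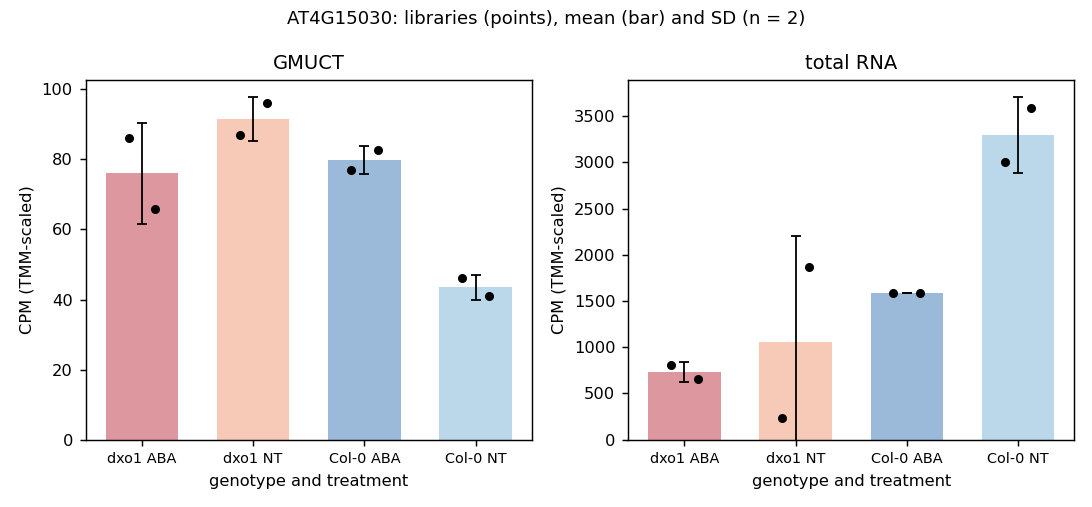
AT4G15030 in GMUCT (left) and total RNA (right), as CPM scaled within each assay. Points are the 2 libraries of each group, bars their mean and error bars the SD, which passes below 0 for dxo1 NT in total RNA. Col-0 NT is the lowest group in GMUCT, with a mean of 43.5 CPM, and the highest in total RNA, with a mean of 3294 CPM.

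In total RNA, Col-0 NT was the highest of the 4 groups for AT4G15030, while it was the lowest in GMUCT. The gene averaged 732 CPM in dxo1 ABA, 1053 in dxo1 NT, 1587 in Col-0 ABA and 3294 in Col-0 NT. The 2 dxo1 NT libraries lay far apart, at 236 and 1870 CPM, and overlapped with the ranges of dxo1 ABA and Col-0 ABA. The 2 Col-0 NT libraries, at 3003 and 3584 CPM, lay above the other 6. The log2 difference of dxo1 from Col-0 under NT was -1.65 ± 0.70 (edgeR, adjusted p = 0.324). Without the second dxo1 NT total RNA library it became -3.80 (edgeR, adjusted p = 0.0117). The snoRNA share of the same libraries also moved between groups and was 1.14 and 6.59% in dxo1 NT. Its part in this result was not tested.

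The 3 other genes tested in GMUCT had no call in any comparison. With ABA in Col-0, AT4G27020 had 19.1 and 16.8 CPM, against 12.0 and 13.9 CPM in Col-0 NT, a log2 difference of 0.48 ± 0.20 (edgeR, adjusted p = 0.0823). AT3G45630 had 43.4 and 48.2 CPM in Col-0 ABA, against 59.4 and 61.4 CPM in Col-0 NT, a log2 difference of -0.40 ± 0.16 (edgeR, adjusted p = 0.0706). The libraries of the 2 groups overlapped for neither gene, and AT3G45630 was called when the groups of the contrast were fitted alone or with library size alone. AGD9 stayed within 67.9 to 96.2 CPM over all 8 GMUCT libraries.

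With ABA, dxo1 and Col-0 differed in GMUCT for 0 of 4 genes (edgeR; 0 at an unadjusted p under 0.05 and 0 by DESeq2), where 30.7% of all genes were called. The ABA effect in dxo1 was likewise called for 0 of 4 (edgeR; 0 at an unadjusted p under 0.05 and 0 by DESeq2), with a background of 7.68%. The log2 differences of the 4 genes ranged from -0.24 to -0.03 between dxo1 and Col-0 with ABA, and from -0.27 to 0.07 between ABA and NT in dxo1. AGD9 averaged 73.6 CPM in dxo1 ABA, 70.1 in dxo1 NT, 84.6 in Col-0 ABA and 83.5 in Col-0 NT in GMUCT. Its libraries overlapped between the 2 dxo1 groups and between the 2 Col-0 groups.

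In total RNA 0 of 5 genes passed the test in any of the 5 comparisons. By edgeR the numbers at an unadjusted p under 0.05 were 2 for dxo1 against Col-0 under NT, 0 for dxo1 against Col-0 with ABA, 2 for ABA in dxo1, 1 for ABA in Col-0 and 0 for the interaction, and DESeq2 called 0 in each. Few genes of any kind were called there: 0.0604, 0.0403, 0.725, 0.443 and 0% of 4965 genes in the same order. For the interaction, edgeR and DESeq2 both called 0 of all genes. There, 293 of the 4965 genes had an unadjusted p under 0.05 in edgeR. That is not far above the share of 0.05 that this threshold gives when no gene changes.

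AT3G45630 had the smallest unadjusted p in total RNA. It had 81.1 and 133 CPM in dxo1 NT, against 26.4 and 39.5 CPM in Col-0 NT, a log2 difference of 1.73 ± 0.52 (edgeR, adjusted p = 0.182). With the replicate number as a block its adjusted p in edgeR was 0.0408, and without the filter on low counts 0.00736. In dxo1 ABA it had 18.1 and 69.0 CPM, below both dxo1 NT libraries, a log2 difference of -1.31 ± 0.50 (edgeR, adjusted p = 0.337).

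AT4G27020 had 8.78 and 51.6 CPM in dxo1 ABA, against 77.9 and 82.0 CPM in dxo1 NT, a log2 difference of -1.43 ± 0.55 (edgeR, adjusted p = 0.348). Without the second dxo1 ABA total RNA library, AT3G45630 and AT4G27020 were called lower with ABA in dxo1, at -2.52 (edgeR, adjusted p = 0.00363) and -3.14 (edgeR, adjusted p = 0.000633), as was AGD9 at -1.67 (edgeR, adjusted p = 0.0381). AT3G55860 had 25.0 and 31.6 CPM in Col-0 ABA, against 2.27 and 18.1 CPM in Col-0 NT, a log2 difference of 1.77 ± 0.70 (edgeR, adjusted p = 0.332). AGD9 averaged 99.4 CPM in dxo1 ABA, 125 in dxo1 NT, 46.6 in Col-0 ABA and 71.8 in Col-0 NT, and its 2 dxo1 ABA libraries, at 38.4 and 160 CPM, spanned the ranges of all 3 other groups. Without the first of these libraries, AGD9 and AT4G27020 were called higher in dxo1 than in Col-0 with ABA, at 1.77 (edgeR, adjusted p = 0.0128) and 1.30 (edgeR, adjusted p = 0.0381).

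**Figure D4:**
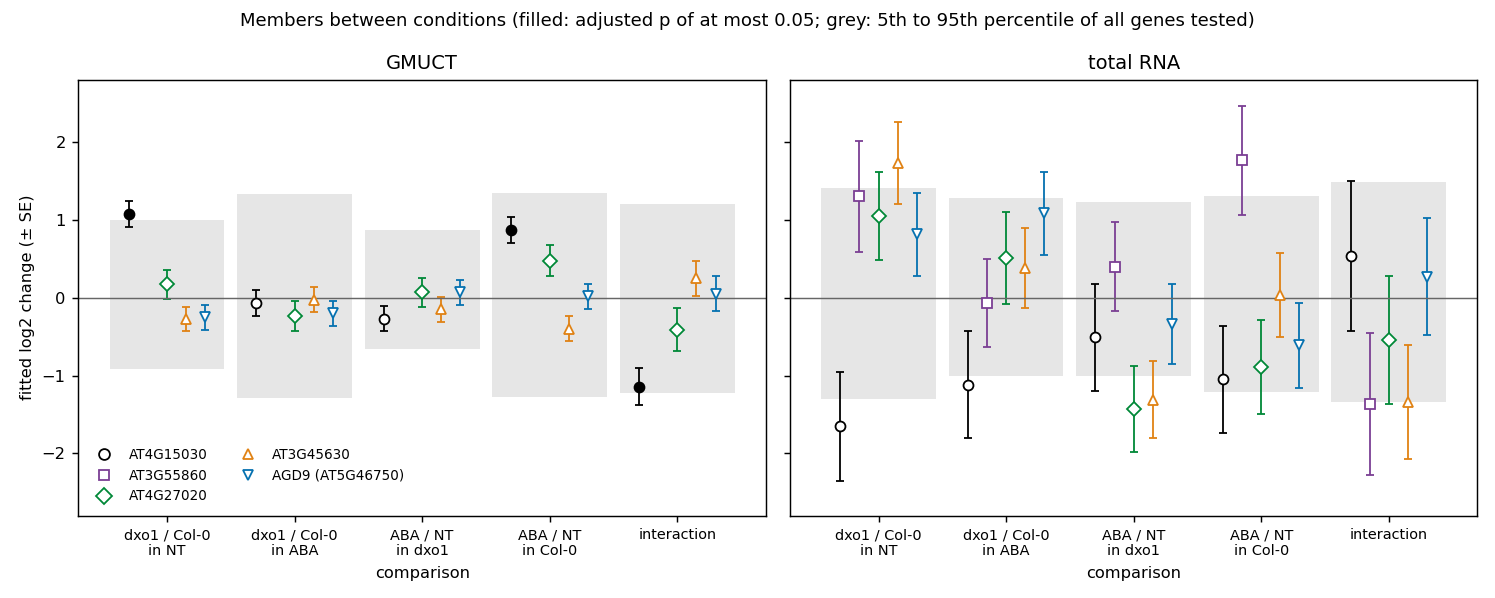
Fitted log2 change of the genes between conditions in GMUCT (left, 4 genes) and total RNA (right, 5 genes), with the approximate SE. Filled symbols passed an adjusted p of 0.05, and grey bars span the 5th to 95th percentile of all genes tested. The 3 filled symbols are AT4G15030 in GMUCT, at 1.07, 0.87 and -1.14.

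The genes whose level most resembled each member over all 24 libraries fell into different classes. Likeness was Pearson's r of log2 CPM, among 3716 genes with a mean of at least 10 counts in total RNA. It is a description, since the libraries share the assay differences that the rule used. For AT4G15030 the nearest were AT1G26880 (r = 0.97), a ribosomal protein L34e gene, FASS (r = 0.97), a phosphatase regulator that places the division plane, and AT5G27860 (r = 0.94). All 3 overlap an annotated snoRNA gene. Among its 20 nearest genes 9 were protein-coding genes with a small RNA overlap and 3 were snoRNA genes, classes with 72 and 41 members among the 3716 candidates.

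For AT3G55860 the nearest were the tRNA-Trp gene AT1G11640 (r = 0.97), the snoRNA gene SNOR105 (r = 0.95) and the tRNA-Trp gene AT4G39615 (r = 0.95). Of its 20 nearest, 7 were snoRNA genes and 8 were ncRNA, snRNA, tRNA or rRNA genes, while 2 were protein-coding, both with a small RNA overlap. How many candidates belong to the class of the 8 was not counted. Whatever their class, 3 of the 20 lay in an organelle genome. For AGD9, AT3G45630 and AT4G27020 all 20 nearest genes were protein-coding. The number with a small RNA overlap was 0 for AGD9, 0 for AT3G45630 and 1 for AT4G27020. Genes with such an overlap and snoRNA genes were few among all candidates, so these counts are no result about the members. The nearest to AGD9 were HAP13 (r = 0.95), a subunit of a clathrin adaptor, ACLA-1 (r = 0.95), an ATP-citrate lyase subunit, and the ion channel gene DND1 (r = 0.95). The nearest to AT3G45630 were 3BETAHSD/D1 (r = 0.94), a sterol enzyme gene, MMT (r = 0.94), which makes S-methylmethionine, and the auxin response factor gene ARF2 (r = 0.94). The nearest to AT4G27020 were AT1G17340 (r = 0.91), a phosphoinositide phosphatase gene, PUM4 (r = 0.90), a Pumilio RNA-binding protein gene, and MLP34 (r = 0.89).

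The ARF-GAP family of AGD9 and the CCR4-NOT genes around AT3G45630 were followed as lists. Of the 14 other ARF-GAP genes 5 could be tested in NAD against total RNA. The 1 call over the 4 conditions was AGD5, lower in dxo1 ABA (log2 ratio -1.96 ± 0.58; edgeR, adjusted p = 0.0280), where 6.03% of all genes were called lower. Of the 17 other CCR4-NOT genes 6 could be tested. In dxo1 ABA, where 6.03% of all genes were called lower, 3 were. These were AT3G58560, a CCR4-type deadenylase (log2 ratio -3.27), AT2G28540 (-2.26), which is NOT4-like as well, and AT1G02080, the scaffold NOT1 (-1.95). In dxo1 NT, where 6.45% of all genes were called lower, AT3G58560 (-3.09) was the 1 called. Each call was by edgeR with TMM scaling at an adjusted p of at most 0.05. With scaling by library size alone, 27 of all 5475 genes were called lower in dxo1 ABA, against 330 with TMM. In Col-0 ABA and Col-0 NT 0 of the 6 were called, where 1.75 and 2.76% of all genes were called lower. The median log2 ratio of the 6 was -1.62 in dxo1 ABA, -0.58 in dxo1 NT, -1.41 in Col-0 ABA and -0.56 in Col-0 NT, against -0.05, 0.01, -0.11 and 0.03 for all genes.

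In GMUCT, where 17 of the 17 other CCR4-NOT genes were tested, the deadenylase gene CAF1a was higher with ABA in dxo1 (1.35 ± 0.17; edgeR, adjusted p = 1.67e-05) and in Col-0 (1.03 ± 0.17; edgeR, adjusted p = 0.000160). Its homologue CAF1b was lower with ABA in Col-0 by -1.23 ± 0.27 (edgeR, adjusted p = 0.00206). In all, 1 of the 17 was higher and 0 lower with ABA in dxo1, where 7.68% of all genes were called, and 1 was higher and 4 lower with ABA in Col-0, where 26.7% were. Between dxo1 and Col-0, 5 were higher and 0 lower with ABA against a background of 30.7%, namely AT2G28540, AT3G58580, AT5G12980, AT5G18230 and VIP2, and AT1G80780 was higher and CAF1a and CAF1b lower under NT against 20.5%. These counts lie near the share of all genes called, so they are no result about the list. The ABA effect differed between the genotypes for 3 of the 17, where 8.92% of all genes were called. These were CAF1b, AT2G28540 and AT5G18230, a NOT3-like gene, at 1.34 ± 0.36, 0.96 ± 0.25 and 0.78 ± 0.23 (edgeR interaction test, adjusted p = 0.0237, 0.0196 and 0.0385). The list was not tested as a set. Of the 13 ARF-GAP genes tested in GMUCT besides AGD9, AGD8 was higher and ZAC lower with ABA in Col-0, against a background of 26.7%. Their values were 0.56 ± 0.20 and -0.58 ± 0.17 (edgeR, adjusted p = 0.0456 and 0.0139). AGD5 was higher in dxo1 with ABA and AGD7 under NT, at 0.50 ± 0.16 and 0.51 ± 0.16 (edgeR, adjusted p = 0.0238 and 0.0323). The backgrounds there were 30.7 and 20.5%. The ARF-GAP counts do not exceed these shares of all genes, so they are no result about the family.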

How the data were processed

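RNA of Arabidopsis was measured as NAD-captured RNA, GMUCT and total RNA, in 2 libraries for each of 4 conditions and 3 assays. Per the submitters' processing notes, reads were trimmed with cutadapt, aligned with STAR 2.4.2a and counted per gene with HTSeq. The authors deposited these whole-number counts per gene, with no normalization. Reads were 50 nt single-end and strand-specific, per the labels' protocols, and the build is TAIR10. How HTSeq treated overlapping genes, and with which annotation, is not given in the sources used here. Reads without a single best position stood in a separate summary line with 81.1 to 94.4% of all lines in NAD, 23.9 to 37% in GMUCT and 91.3 to 96.6% in total RNA. The 5 summary lines were left out of library sizes and tests. A gene with near-identical copies therefore loses reads.

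Genes with enough reads (filterByExpr, minimum count 10) were scaled by TMM and tested with edgeR 4.0.16 in R 4.3.3 by its quasi-likelihood test, with Benjamini-Hochberg adjustment over all genes tested and a threshold of 0.05. GMUCT and total RNA were each fitted alone for the condition comparisons, and NAD or GMUCT was fitted together with total RNA for the ratios. SEs were derived from the fold change and the F value and are approximate. Levels are CPM scaled within an assay, and log2 CPM used a prior count of 2. The fits of GMUCT alone and of total RNA alone were tested on simulated counts, for ABA in Col-0 only. The joint fits behind the ratios were not. DESeq2 1.42.0 was run as an alternative, beside other scalings, no filter, no organelle genes, the replicate number as a block and each library left out.

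Gene classes, overlaps and exon lengths come from RefSeq's TAIR10.1 annotation, which matched 28009 of 28775 gene IDs (97.3%). Annotated snRNA, snoRNA and tRNA genes were compared with protein-coding gene sequences by blastn 2.17.0, in genome sequence of that assembly. The members and the lists were chosen with earlier results of these data known. The sequence search, and the choice of member values given between conditions (an unadjusted p under 0.05, plus AT4G15030 throughout GMUCT), were made after values were seen. Other genes named are DXO1, called members of the 2 family lists, the 3 genes most like each member, and those nearest the threshold.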

Additional observations from a re-analysis of the deposited data

Results flagged for a closer look

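In GMUCT the effect of ABA on AT4G15030 was -0.27 in dxo1 and 0.87 in Col-0 on the log2 scale, and the difference between the genotypes was -1.14 ± 0.23 (edgeR interaction test, adjusted p = 0.00408). It was picked out because the same treatment gave a different change in the 2 genotypes by a test of that difference. The adjusted p ranged from 0.000163 to 0.0493 over the alternatives run. AT4G15030 had 368 to 1438 reads in each GMUCT library.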

How the results depend on the processing

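Over the alternatives run, 140 of 160 counts of members equalled the reported count or stayed within 1.5 times it. Many of the reported counts were 0, and a repeated count of 0 says little about stability. A chosen set of member values was recomputed under each setting. Of the recomputed values, 466 were unchanged in call or within 1 SE and 55 moved by more than 1 SE. A further 7 passed the threshold anew and 7 changed sign. Over all members and condition comparisons, also those outside the chosen set, 11 calls were gained. The cause of these changes was not tested. With scaling by library size alone the GMUCT to total RNA value was 0.58 in Col-0 ABA and 0.25 in Col-0 NT for AGD9, and 0.40 in dxo1 ABA, 0.19 in Col-0 ABA and 0.93 in Col-0 NT for AT3G45630. This scaling left 1 member lower in NAD in all 4 conditions and 2 lower in GMUCT, and gave 0.20 for AT4G15030 in GMUCT between dxo1 and Col-0 with ABA, which ranged from -0.27 to 0.12 with single libraries left out, at 0.12 without the second dxo1 ABA GMUCT library. It moved the median gene of the NAD to total RNA ratios to between -1.34 and 0.21.

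For ABA in Col-0, 2 members were called in GMUCT under library size alone and with the groups of the contrast fitted alone, the second being AT3G45630 (edgeR, adjusted p = 0.0179 and 0.0233). With the groups alone 1 member, AT4G15030, was called in total RNA for ABA in Col-0 (-1.07; edgeR, adjusted p = 0.0431). For dxo1 against Col-0 under NT in total RNA, 1 member, AT3G45630, was called with no filter and 1 with the replicate block. Leaving out single libraries gave 0 to 3 members called for ABA in dxo1, 0 to 2 for dxo1 against Col-0 with ABA and 0 to 1 for dxo1 against Col-0 under NT, all in total RNA. It gave 1 to 5 members lower in NAD in all 4 conditions and 4 to 5 lower in GMUCT, where the calls of the other conditions were kept from the full fit and the lone library was assumed to vary like the other groups.

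Replicate numbers were shared by the groups. The deviations of same-numbered libraries correlated at -0.06 to 0.31, and the numbers were not taken to pair the libraries. The highest values were in total RNA, 0.31 for dxo1 against Col-0 under NT and 0.27 for ABA in dxo1. With the block, edgeR called 32 genes higher and 50 lower in the first of these, against 0 and 3 without it. In the second it called 69 higher and 28 lower, against 27 and 9. The number of genes called in total RNA thus depended on this choice. The replicate block gave -1.15 for the AT4G15030 interaction in GMUCT (edgeR, adjusted p = 0.00279) and changed no other count of members than the one above.

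Few reads limit the NAD values, since 36 of the 40 counts of a member in an NAD library were under 20 reads, of genes that were chosen for low NAD levels.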
